A study of Caenorhabditis elegans with 4 samples.

Results

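The regions described here are the wide stretches of the Caenorhabditis elegans genome that an antibody against CEH-30::GFP recovered from late embryos. They were chosen by their width in the authors' list of called regions, as every region of 400 bp or more on any chromosome. The rule found 750 regions among 6672, or 11.2% of the list, and the other 5922 regions, all under 400 bp, are called narrower regions below. The tested DNA came from 2 chromatin immunoprecipitation (ChIP) samples, and the DNA they were set against came from 2 input samples. All 4 samples were of strain OP120 in the unc119(ed3) background, carried the transgene wgIs120 (ceh-30 with TY1, EGFP and FLAG tags, brought in by bombardment), were labelled hermaphrodite and were grown at 20 °C. No untagged worms are among the samples described, so DNA recovered independently of CEH-30 cannot be told apart from DNA bound by the fusion protein.

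CEH-30 is a homeodomain transcription factor of the Bar family. Homeodomain proteins bind short DNA sequences, and worm factors of this kind act largely through sites near the genes they control. CEH-30 is known for keeping the male-specific CEM sensory neurons alive: these cells die by programmed cell death in hermaphrodites, where the sex-determining factor TRA-1 represses ceh-30. In ChIP-seq, a bound site is recovered on sheared fragments much longer than the site, so a called region spreads around it. A wide region can hold 1 extended block of recovered DNA or several sites close together, and a list of regions does not separate these.

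The list held 1 start, 1 end and 1 q-value for each region (the p-value of its ChIP over input enrichment after correction for the number of regions), on WormBase release WS180, with the replicates combined. No value per sample and no read count was part of it. The spread between replicates and the sequencing depth are therefore unknown for every value below, and no test was run: shares carry 95% exact binomial (Clopper-Pearson) intervals, which cover counting error only and treat regions as independent. Width chose the members, and 1 caller derived both a region's width and its q-value from 1 set of reads. The q-values of the wide regions are thus a description and support nothing by themselves. Strength below means the −log10 of the deposited q-value, so a larger strength is a smaller q-value. Genes and sequence under the regions were not analysed here.

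Most wide regions were only somewhat above the limit, and a few were very long. Among the 750 widths the median was 523 bp (quartiles 449 and 680 bp), against a median of 153 bp (quartiles 59 and 241 bp) in the narrower regions. Of the 750, 329 regions (43.9%) measured 400 to 499 bp, 154 measured 500 to 599 bp, 144 measured 600 to 799 bp and 59 measured 800 to 999 bp. A further 43 regions measured 1000 to 1999 bp, 14 measured 2000 to 4999 bp, and 7 were of 5000 bp or more. The wide regions covered 545.4 kb, or 36.8% of all bases in the list, and the narrower regions covered 935.9 kb. The 7 longest alone held 64.5 kb, which is 11.8% of the bases in wide regions.

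The limit itself did not part strong regions from weak ones. For the 17 regions of 400 to 404 bp the strengths lay between 2.05 and 18.5 with a median of 4.94. For the 37 regions of 395 to 399 bp, just outside, they lay between 2.91 and 18.2 with a median of 6.86. Both groups spanned almost the same range, and the regions just outside had the higher median.

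**Figure D1:**
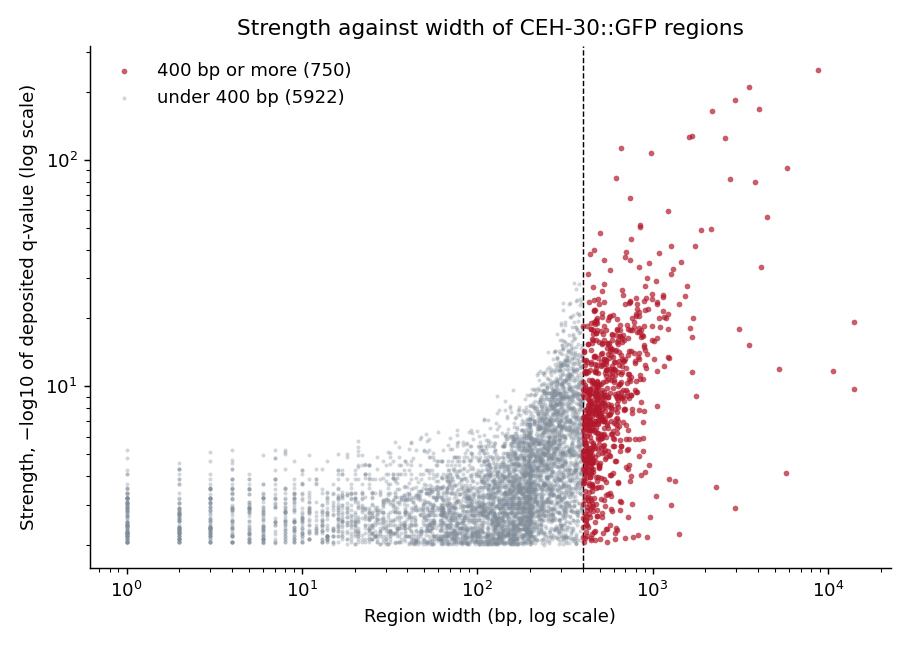
Strength, the −log10 of the deposited q-value, against width in bp for all 6672 regions, both on log scales; red points are the 750 regions of 400 bp or more, grey points the 5922 narrower regions, and the dashed line is the limit. The highest grey point lies at a strength of 28.5, and the longest red regions are spread from 4.13 to 250.9.

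The top of the list consisted of wide regions. The 42 smallest q-values all belonged to them, and the strongest narrower region ranked 43. That narrower region, of 358 bp on chromosome I at 11182367 to 11182724, carried the q-value 3.07e-29. The next narrower regions were on III at 3104603 to 3104982 (380 bp, 6.19e-29) and on IV at 17249692 to 17250057 (366 bp, 9.74e-28). Wide regions made up 84 of the 100 strongest regions, 157 of the 200 strongest and 285 of the 500 strongest. In the best 10% of the q-values (668 regions, 10% of the list) there were 337 wide regions, or 44.9% of them, against 331 narrower regions, or 5.59%. Beside the limit these shares were alike, 26.6% (213 of 800) at 300 to 399 bp and 27.7% (91 of 329) at 400 to 499 bp. A strength of 30 or more was found in 41 wide regions and in 0 narrower ones.

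The median strength was 8.58 in the wide regions, with quartiles of 5.20 and 14.1, against 3.26 in the narrower regions, with quartiles of 2.51 and 4.86. The medians differ by 5.32 (wide minus narrower), but the classes overlapped: 434 narrower regions (7.33%) were stronger than the median wide region. Within the wide regions, strength and width had a Spearman rho of 0.44 (750 regions), which is a description only, since both values come from the same reads. The median strength rose with width in the narrower regions too, from 2.70 under 100 bp to 3.14 at 100 to 199 bp. It was 4.80 at 200 to 299 bp and 6.36 at 300 to 399 bp. In the wide regions it was 6.82 at 400 to 499 bp, 8.40 at 500 to 599 bp and 10.3 at 600 to 799 bp. It reached 16.0 at 800 to 999 bp, 20.1 at 1000 to 1999 bp and 68.1 at 2000 to 4999 bp. At 5000 bp or more it was 11.9, so the order broke at the longest regions.

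Most of the longest regions were strong, but width and q-value ranked them differently. The best 10% of the q-values included 12 of the 14 regions of 2000 to 4999 bp and 6 of the 7 of 5000 bp or more, and the 5 strongest regions were all of 2000 bp or more. Of the 5 widest, the region on V at 10057086 to 10071197 (14112 bp) ranked 118 by q-value (5.78e-20). Its counterparts on IV, of 14044 bp at 8471404 to 8485447 and of 10753 bp at 8485661 to 8496413, ranked 594 and 405. The region on I at 5371410 to 5380164 (8755 bp) had the smallest q-value of the list, 1.28e-251. The fifth, on V at 10080719 to 10086531 (5813 bp), ranked 11. The only region that was among both the 5 widest and the 5 strongest was that on I.

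After the region on I, the strongest wide regions lay on II at 14404776 to 14408337 (3562 bp, q-value 4.77e-211) and on V at 1803796 to 1806743 (2948 bp, 6.09e-186). Those ranking 4 and 5 lay on III at 9050147 to 9054219 (4073 bp, 1e-169) and on I at 13600246 to 13602418 (2173 bp, 3.79e-166). Their surroundings were alike in 1 respect: narrower regions lay close to most of them. The regions of rank 3 on V, rank 4 on III and rank 5 on I had 4, 5 and 5 narrower regions within 5 kb. Their nearest gaps were 384, 213 and 202 bp. The region of rank 1 on I had 2, at a nearest gap of 386 bp. None of these had another wide region within 40 kb. The region on II differed, with another wide region after a gap of 1140 bp and 1 narrower region within 5 kb, at 4945 bp.

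Wide but weak regions were present too, and V held the most of them. Among the wide regions, 57 (7.6%) carried a q-value of at least 0.001, against 2532 of the narrower regions (42.8%). V held 25 of the 57, which is 19.1% of its wide regions. IV held 12 (10.4%), X 8 (5.37%), I 6 (3.77%), II 5 (5%) and III 1 (1.04%). The narrower regions were not split by chromosome at this q-value, so these shares have no background per chromosome beside them. The 57 had a median width of 471 bp, against 528 bp in the other 693 wide regions, and the longest of them measured 2947 bp. The 5 wide regions with the largest q-values lay on I (2 regions), IV, V and X. The weakest, of 404 bp on I at 14226270 to 14226673, had a q-value of 0.00888 and ranked 6472 of 6672.

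Of the weak wide regions on V, 9 lay between 17 and 18 Mb, an interval chosen after the values were seen. It held 19 wide regions with a median strength of 3.02 and a highest strength of 11.4. Without this interval, 16 of 112 wide regions on V (14.3%) had a q-value of 0.001 or more, which is still above the share on each other chromosome, and the median strength of the wide regions on V was 8.46 in place of 7.76.

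Wide regions lay on all 6 nuclear chromosomes, and their share of a chromosome's regions ran from 8.25% on III to 13.8% on X. On X, 149 of 1082 regions were wide (13.8%, interval 11.8% to 16.0%), followed by I with 159 of 1232 (12.9%, 11.1% to 14.9%) and V with 131 of 1080 (12.1%, 10.2% to 14.2%). IV had 115 of 1033 (11.1%, 9.28% to 13.2%), II 100 of 1082 (9.24%, 7.58% to 11.1%) and III 96 of 1163 (8.25%, 6.74% to 9.99%). Neighbours in this order had overlapping intervals, while those of X, I and V did not overlap that of III. III had the most narrower regions per Mb of all chromosomes, 77.4, and 6.97 wide regions per Mb. I had the most wide regions per Mb, 10.6, followed by X with 8.41, and V had the fewest, 6.28.

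Among wide regions, the higher share on X was seen in the shortest ones. X held 79 of the 329 regions of 400 to 499 bp (24.0%, interval 19.5% to 29.0%), 60 of the 357 of 500 to 999 bp (16.8%, 13.1% to 21.1%) and 10 of the 64 of 1000 bp or more (15.6%, 7.76% to 26.9%). Over all widths, X held 19.9% of the wide regions (17.1% to 22.9%) and 15.8% of the narrower ones. With a limit of 300 bp it held 19.4% of the regions at or above the limit and 15.25% of those below. With a limit of 500 bp these shares were 16.6% and 16.2%. The median width of the wide regions was 486 bp on X, against 531 bp on the autosomes, and the longest region on X, at 16929367 to 16931967, measured 2601 bp and ranked 8 by q-value (6.73e-126). Among regions of 1000 bp or more, V had the most, 16 of 64 (25%, 15% to 37.4%), an interval that holds its share of all wide regions (17.5%), of the narrower regions (16.0%) and of the span (20.8%). Wide regions held 44.2% of all covered bases on V, 35.6% on X and 28.9% on III, against 36.8% in the whole list. On V, 8 wide regions between 10047922 and 10091990 held 33573 bp of the 118.0 kb in wide regions.

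By median strength, the wide regions of III, I and II lay above those of V, IV and X. The median strength of the wide regions was 9.98 on III, 9.86 on I and 9.47 on II, and 7.76 on V, 7.72 on IV and 7.42 on X. In the narrower regions the medians were 3.72 on III, 3.47 on I, 3.39 on II, 3.14 on V, 3.11 on IV and 2.90 on X. The best 10% of the q-values included 59.4% of the wide regions on III, 55.3% on I and 52.0% on II, against 36.6% on V, 35.6% on X and 33.9% on IV. The order of the chromosomes by median was thus the same in both classes, and these shares of wide regions changed it only between X and IV. The wide medians had a clear step between II and V, while the narrower medians were spread more evenly. By the best 10% of the q-values, however, the narrower regions had the same split. The shares of narrower regions were 7.50% on III, 7.33% on II and 7.27% on I, against 3.92% on IV, 3.79% on V and 3.11% on X. There was no replicate error to set these differences against.

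**Figure D2:**
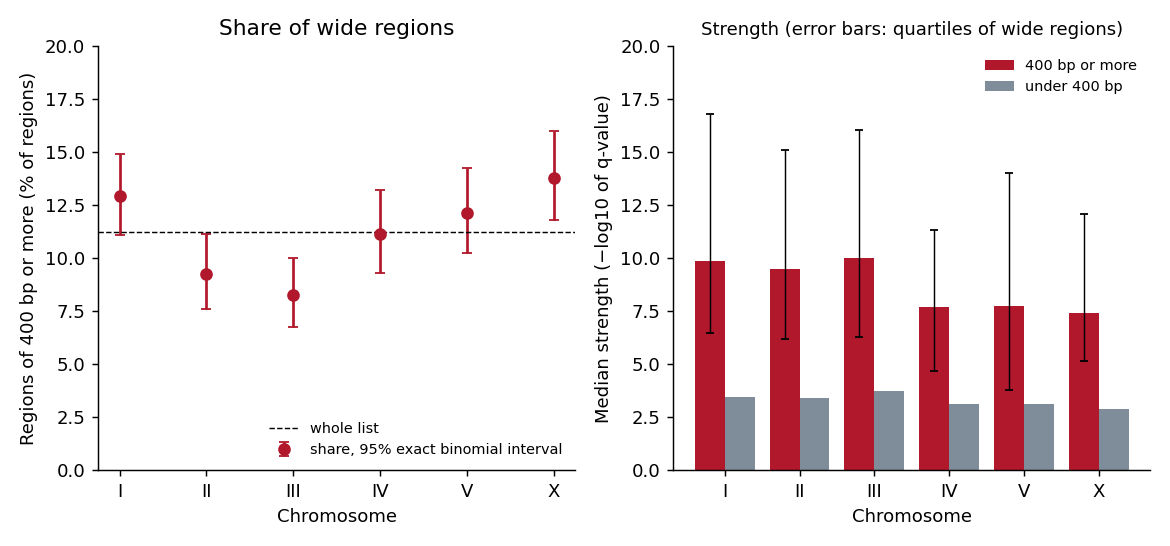
Left, regions of 400 bp or more as a percentage of all regions of each chromosome, with 95% exact binomial intervals and the share in the whole list (11.2%) as a dashed line; right, median strength (−log10 of the q-value) of wide (red, with quartiles as error bars) and narrower regions (grey, drawn without error bars). X and I lie highest on the left at 13.8% and 12.9%, and III lies lowest at 8.25%.

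Along the chromosomes, the wide regions were fewer in the left part of each span than in the right part. The span was taken as the end of a chromosome's last region and cut into 3 equal parts, called left, central and right. Over all chromosomes, 198 wide regions (26.4%, interval 23.3% to 29.7%) lay in the left part, 266 (35.5%, 32.0% to 39.0%) in the central part and 286 (38.1%, 34.6% to 41.7%) in the right part. The narrower regions were split more evenly, into 31.7%, 34.4% and 33.8%. On each of the 6 chromosomes the left part held the fewest wide regions, from 18 of 100 on II to 47 of 149 on X. The narrower regions were also fewest in the left part on I (30.5%), II (24.7%), III (31.5%) and V (31.6%). On IV and X the left part held the most narrower regions. The difference between classes was widest on IV: its left part held 26.1% of the wide regions (18.3% to 35.1%) against 39.1% of the narrower ones, and its right part 40.0% (31.0% to 49.6%) against 28.6%.

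Which end of a worm chromosome is drawn on the left is a convention of the genetic map. Regions of 1000 bp or more numbered 12 in the left parts, 27 in the central parts and 25 in the right parts, out of 198, 266 and 286 wide regions. On V, 9 of the 16 lay in the central part. Of these, the regions of 3536, 14112, 2947, 5813 and 5259 bp lay in 1 stretch, at 10053268 to 10091990. Those of 1309 and 1743 bp lay in another, at 9085658 to 9092637, so the 9 may not be independent of each other. The wide regions of V had a median strength of 7.77 in the central part, against 9.09 in the left part and 4.87 in the right part. On I the right part was the strongest, with a median of 15, against 10.5 on the left and 7.61 in the centre. Of the 12 outermost regions of the chromosomes, 2 were wide: the first region of II, at 128 to 845, and the last region of III, at 13778112 to 13781232 (3121 bp, q-value 1.28e-18).

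**Figure D3:**
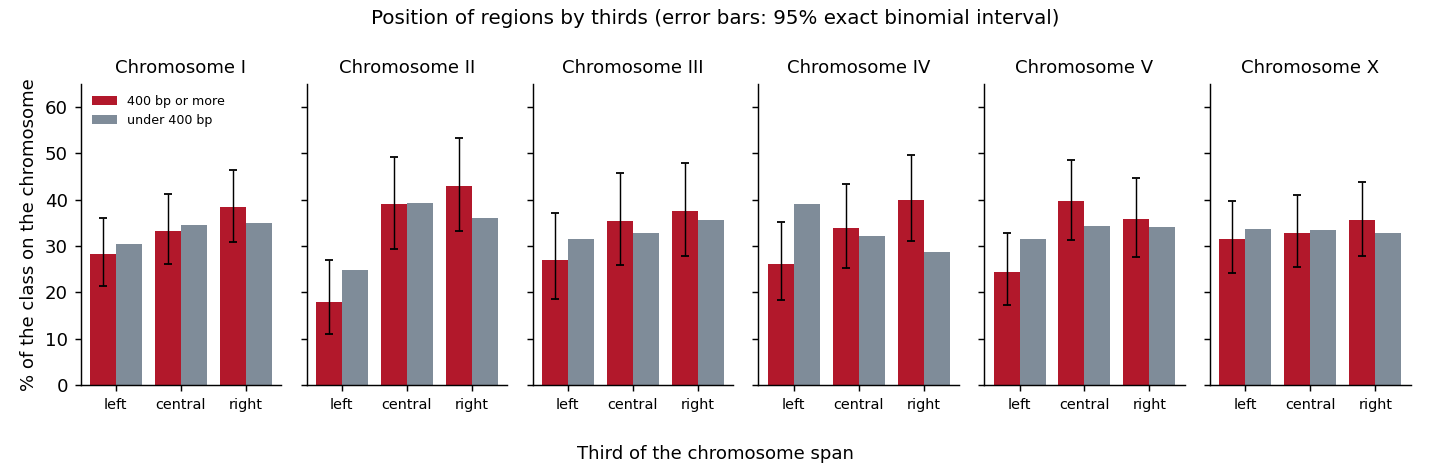
Regions in the left, central and right part (3 equal parts) of each chromosome span, as a percentage of the wide regions (red, with 95% exact binomial intervals) and of the narrower regions (grey) of that chromosome. The left part is the lowest red bar on all 6 chromosomes, from 18% on II to 31.5% on X, and the lowest grey bar on I, II, III and V.

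Wide regions lay closer to each other than narrower regions lay to wide ones. Another wide region was found within 5 kb (edge to edge) of 208 wide regions (27.7%, interval 24.6% to 31.1%), and a wide region was found within 5 kb of 824 narrower regions (13.9%). The median gap to the nearest wide region was 25.7 kb from a wide region and 44.9 kb from a narrower one. Within 1 kb the shares were 13.1% (10.7% to 15.7%) for wide and 4.32% (3.82% to 4.87%) for narrower regions, and within 100 kb they were 78.5% and 74.4%. By chromosome, the share with another wide region within 5 kb was 38.0% on II, 35.9% on V, 28.3% on I, 27.1% on III, 25.2% on IV and 15.4% on X. On X the narrower regions had a share of 13.2%, so the classes were nearest to each other there. Wide regions with such a neighbour had a median width of 594 bp and a median strength of 9.37 (208 regions), against 509 bp and 8.32 without one (542 regions). The binomial intervals of these median strengths overlapped, 8.11 to 10.8 with and 7.88 to 9.01 without a neighbour. The quartiles of strength were 4.62 and 17.5 with one, and 5.36 and 13.1 without.

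The share of wide regions with a wide neighbour rose with width up to 999 bp and varied beyond. At 300 to 399 bp, just under the limit, 16.9% of the regions had a wide region within 5 kb. The share with another wide region within 5 kb was 21.3% at 400 to 499 bp, 22.1% at 500 to 599 bp, 31.9% at 600 to 799 bp and 47.5% at 800 to 999 bp. It was 44.2% at 1000 to 1999 bp, 35.7% (5 of 14) at 2000 to 4999 bp and 85.7% (6 of 7) at 5000 bp or more. The exception among the 7 was the region on I at 5371410 to 5380164, whose nearest wide region lay 54.4 kb away. The others came from few places: those of 14112, 5813 and 5259 bp shared 1 stretch of V. Those of 14044 and 10753 bp were a pair on IV, and that of 5807 bp lay on II. Members of a stretch count as neighbours of each other, so the 6 are not independent. Since a short gap inside a stretch of recovered DNA gives a pair of regions, close wide regions may be separate sites or pieces of 1 block, and the list cannot tell these apart. No gap between any regions was shorter than 200 bp.

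**Figure D4:**
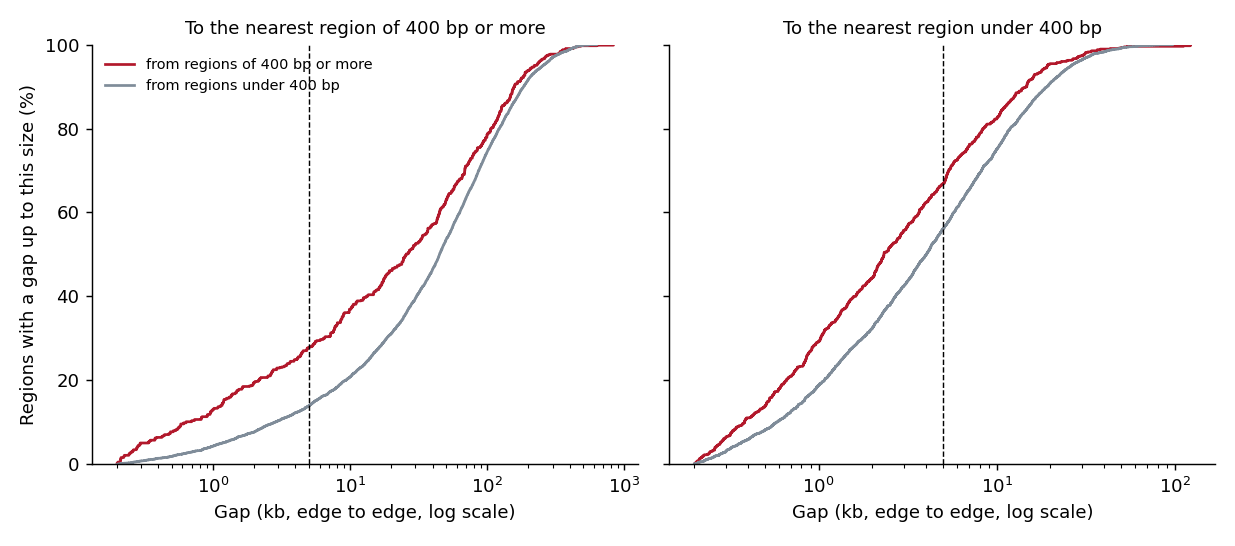
Cumulative share of regions (%) by the edge-to-edge gap (kb, log scale) to the nearest wide region, left, and to the nearest narrower region, right, for wide regions (red) and narrower regions (grey); the dashed line marks 5 kb. The red curve lies above the grey one at 5 kb in both panels, at 27.7% against 13.9% on the left and 66.9% against 56.1% on the right.

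Wide regions also had a narrower region closer by than narrower regions did. A narrower region lay within 5 kb of 502 wide regions (66.9%, interval 63.4% to 70.3%), and another narrower region lay within 5 kb of 3322 narrower ones (56.1%). The median gap to the nearest narrower region was 2.33 kb from a wide region and 4.03 kb from a narrower one. Within 500 bp the shares were 13.9% and 8.16%, and within 2 kb they were 44.4% and 32.4%. Within 5 kb the share was 60.5% for narrower regions of 300 to 399 bp and 63.8% for wide regions of 400 to 499 bp. The number of narrower regions within 5 kb averaged 1.36 per wide region and 0.958 per narrower region. Of the wide regions, 325 had such neighbours on 1 side only, 177 on both sides and 248 on neither. The sides were nearly even, with 344 wide regions having one on the left and 335 on the right. The share was highest on III, 78.1%, and lowest on X, 58.4%. The narrower regions had their highest and lowest shares on the same chromosomes, 60.6% on III and 50.7% on X.

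The number of narrower neighbours did not follow the strength of the wide region. The rho between strength and the number of narrower regions within 5 kb was 0.01, and that between width and this number was 0.10 (750 regions each, as descriptions). The 248 wide regions with no narrower region within 5 kb had a median strength of 8.81, and the 23 with 5 or more had 7.56. Those with the most neighbours differed widely. A region of 694 bp on I at 11131304 to 11131997 had 11 narrower regions within 5 kb and a q-value of 7.14e-38. On V, a 453 bp region at 17539177 to 17539629 had 9, with a q-value of 0.000247. The third, of 923 bp on I at 11135665 to 11136587, had 8 and a q-value of 2.60e-25.

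Narrower regions beside wide ones were slightly weaker than those farther away. The 824 within 5 kb of a wide region had a median strength of 3.08 (binomial interval of the median 2.98 to 3.19), and the 5098 farther away had 3.29 (3.23 to 3.36). The medians did not climb evenly with distance: they were 3.04 (2.73 to 3.35) up to 500 bp, 2.94 at 500 to 1000 bp, 3.09 at 1 to 2 kb and 3.16 at 2 to 5 kb. Farther away they were 3.29 at 5 to 10 kb, 3.18 at 10 to 20 kb, 3.23 at 20 to 50 kb and 3.35 beyond 50 kb. Their widths went the other way, with medians of 167 bp near and 150 bp far. The best 10% of the q-values took in 31 of the 824 (3.76%) and 300 of the 5098 (5.88%). The difference in medians, near minus far, was negative on all 6 chromosomes, from −0.54 on III to −0.03 on X. With wide regions counted only from 1000 bp, the difference had the other sign (0.37). The narrower regions were then all those under 1000 bp, a different set from that above.

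Where wide regions had company, they were usually the strongest of it. Of the 555 wide regions with any region within 5 kb, 373 (67.2%) had the smallest q-value of that neighbourhood, and of the 3531 narrower regions with a neighbour, 1183 (33.5%) did. Still, 84 of the 502 wide regions with narrower neighbours (16.7%) had a stronger narrower one within 5 kb. Isolated wide regions were rare: 22 (2.93%) had no region of either class within 20 kb, against 7.77% of the narrower regions. The most isolated lay on X at 14908256 to 14909487 (1232 bp, q-value 3.24e-14), with 54.0 kb to the nearest region.

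Joined by gaps of up to 5 kb, 208 wide regions formed 84 chains and 542 stood alone. The chains comprised 57 pairs, 19 of 3 wide regions, 6 of 4, 1 of 5 and 1 of 8. I and V had 18 chains each, II 15, IV 13, III 11 and X 9. The 3 largest, ranked by the number of wide regions and then by covered bases, lay on V, II and V.

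The chain of 8 on V ran from 10047922 to 10091990, a stretch of 44.1 kb of which wide regions covered 76.2%. From left to right its members had strengths of 11.3, 12.5, 15.3, 19.2, 2.15, 2.89, 92.1 and 11.9. The strongest member and its weaker right-hand neighbour of 5259 bp were separated by 200 bp, which is the closest pair of wide regions in the list. Only 1 narrower region, of 89 bp, lay inside the chain.

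The chain of 5 on II, at 7272579 to 7287419, was long and weak throughout. It covered 71.3% of 14.8 kb, its members ranged from 428 to 5807 bp in width, and their strengths were 3.59, 4.13, 2.23, 2.38 and 2.26. It held the widest region of II, at 7275106 to 7280912, which ranked 2592 by q-value. The chain of 4 on V at 9085658 to 9096051 was the reverse: its regions covered 40.4% of 10.4 kb, with strengths of 33.0, 113.2, 41.6 and 8.82. The pair on IV that held 2 of the 5 widest regions filled 99.1% of a stretch of 25 kb, with 213 bp between its members. Chains of wide regions thus included both some of the strongest and some of the weakest wide regions.

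**Figure D5:**
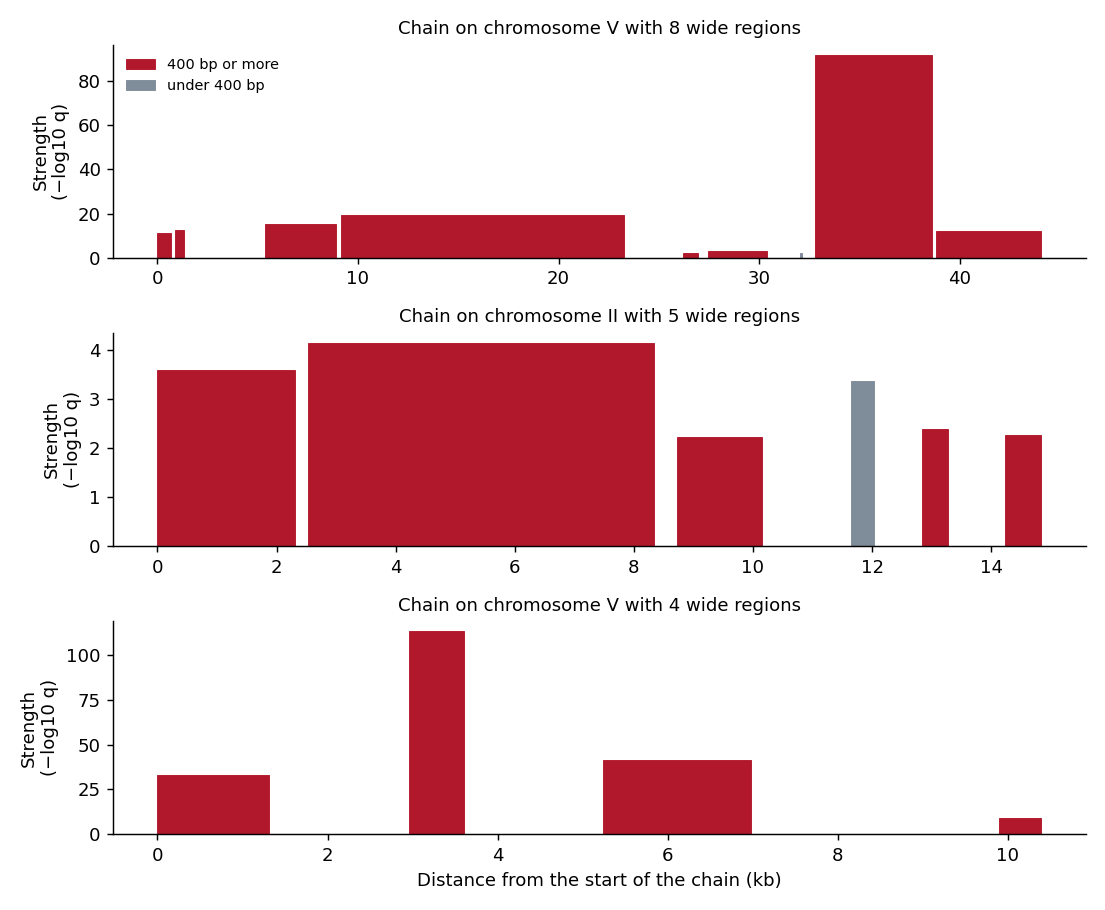
Members of the 3 largest chains of wide regions, drawn to scale by distance from the start of the chain (kb), with strength (−log10 of the q-value) as bar height and a separate scale on each axis of each panel; red bars are wide regions and grey bars narrower ones inside the chain. Strengths reach 92.1, 4.13 and 113.2 in the 3 panels from top to bottom.

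Between wide regions, long stretches held narrower regions only. The median stretch between neighbouring wide regions was 72.3 kb, and 26 stretches were over 500 kb, of which 9 lay on V, 5 on X, 4 on III, 3 each on II and IV and 2 on I. The longest was on II at 2571031 to 3553617, 982.6 kb with 42 narrower regions in it. On III, a stretch of 909.7 kb at 11036552 to 11946289 held 90 narrower regions. The first Mb of IV had 1 wide region and 83 narrower ones. In 1 Mb bins, chosen after the values were seen, the wide regions numbered from 1 to 20 with a median of 7, and no bin of 102 was without one (the last bin of each chromosome is shorter). The numbers of wide and narrower regions per bin had a rho of 0.31 over the 102 bins, as a description.

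The bins richest in wide regions were unlike in strength. The bin at 13 to 14 Mb on I had 20 wide regions with a median strength of 20.5, and 18 of them were in the best 10% of the q-values. The bin at 17 to 18 Mb on V had 19 with a median of 3.02, and 1 of them was in the best 10%. The bin at 11 to 12 Mb on I had 17 with a median of 9.37, of which 10 were.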

How the data were processed

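The data were 1 list of regions for the whole series, with the q-value that the authors deposited for each. Per the file headers, coordinates refer to WormBase WS180, and the source column names PeakSeq, which scores ChIP over input DNA. Per the labels' protocols, worms were crosslinked with 2% formaldehyde and quenched with 100 mM Tris. The sources used here name neither the aligner, versions and filters nor the way of combining replicates. The list holds only regions with a q-value under 0.01, so a stretch without a region is a stretch without a call.

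Width (end minus start plus 1), −log10 of the deposited q-value (strength), edge-to-edge gaps, joined chains, spans and exact binomial intervals were computed with Python 3.11.15, numpy 2.4.6, pandas 2.3.3 and scipy 1.17.1, and drawn with matplotlib 3.10.9. An interval of a median comes from binomial order statistics. Gap and joining functions were tested on simulated data.

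Members and comparisons were chosen with earlier results of these data known. The regions named are the 5 widest, 5 strongest and 5 weakest wide ones, the widest per chromosome, those up to 5 bp either side of the limit, the closest pair, the most isolated, the 3 largest chains, the 3 with most narrower neighbours and the 3 strongest narrower regions. Others were chosen after their values were seen. Alternatives were other width limits, joining, a stricter q-value, other distances and leaving out each chromosome. Release WS180 sequence and genes were not used here.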

Additional observations from a re-analysis of the deposited data

How the results depend on the processing

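Of 80 alternative values for 8 results, 50 stayed within the interval of the main value, or within 1.5 times it for numbers and covered bases, 29 moved and 1 changed sign. With a width limit of 300, 500 or 1000 bp there were 1550, 421 or 64 wide regions. They held 55.4% of covered bases at 300 bp and 11.2% at 1000 bp. X had 19.4% of them at 300 bp, against 15.25% of the narrower regions. It had 16.6% at 500 bp and 15.6% at 1000 bp, against 16.2% of the narrower regions at both. Its higher share was thus not seen at 500 and 1000 bp. With only q-values below 0.001, X held 20.35% of the wide regions and 12.86% of the narrower ones. By covered bases, X held 16.1% of the bases in wide regions. Wide regions held 35.6% of the covered bases on X and 37.1% of those on the autosomes, so X was not higher by this measure. The difference in median strength was 4.21, 7.85 and 17.2 at the 3 limits, and 4.62 with q-values below 0.001. Another wide region within 5 kb was found for 32.7% at 300 bp and 21.9% at 1000 bp, against 23.3% and 2.01% of the narrower regions. A narrower one was found for 58.0%, 73.9% and 81.2% at the 3 limits, against 50.55%, 58.25% and 60.7% of the narrower regions. The central part of 3 held 46.3% of autosomal wide regions at 1000 bp (25 of 54). At 400 bp it held 36.1% of the wide and 34.6% of the narrower autosomal regions. The central 50% of the span held 55.9% of autosomal wide regions at 400 bp, with no share of narrower regions computed beside it. At the 1000 bp limit the narrower regions were all those under 1000 bp, a different set from the main one. Narrower regions near a wide one were then stronger, not weaker, than the others (0.37), the only change of sign. The cause was not tested. Joining regions within 2000 bp gave 1352 joined regions of 400 bp or more with 79.9% of covered bases. Of these, 699 came from narrower regions only, so they are largely a different set. Of the 1352, 17.9% had a wide and 31.4% a narrower neighbour, against 12.0% and 26.9% of the joined regions under 400 bp. Joining within 500 bp gave 924, of which 206 came from narrower regions only. A narrower neighbour was found for 60.3% of the 924, against 49.95% of the joined regions under 400 bp. With q-values below 0.001 it was found for 47.3% of the wide and 39.65% of the narrower regions. Within 2 kb and 20 kb, 19.5% and 46.1% of the wide regions had a wide neighbour, against 7.67% and 31.2% of the narrower regions. A narrower neighbour was found for 44.4% and 95.5% of the wide regions, against 32.4% and 90.9% of the narrower ones. In all 15 alternatives for each of both neighbour shares, the wide regions stayed above the narrower ones. Leaving out any chromosome moved none of the 4 results it was run for. No paired analysis was possible because both replicates were merged into 1 list, which also kept any single replicate from being left out. Weak or missing regions cannot be read as unbound, since the sequencing depth is unknown.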

Other observations

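The number of regions dropped at widths near 200 and 400 bp, which was seen only after the values were examined. In steps of 20 bp, the list held 134 regions of 360 to 379 bp and 132 of 380 to 399 bp, then 77 of 400 to 419 bp and 71 of 420 to 439 bp. At the lower width, 391 regions measured 180 to 199 bp, 340 measured 200 to 219 bp and 258 measured 220 to 239 bp. The limit of 400 bp used above therefore lies at a step in the width distribution. The median strength was 6.80 at 380 to 399 bp and 5.45 at 400 to 419 bp. The share with another region within 1 kb was 21.9% at 340 to 359 bp and 29.9% at 360 to 379 bp. It was 34.8% at 380 to 399 bp, 32.5% at 400 to 419 bp and 26.8% at 420 to 439 bp. The smallest gap between regions in the list was 200 bp. Whether the steps come from the calling of regions was not tested.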
